A study of Mus musculus with 6 samples.

Results

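Among the regions enriched for 5-hydroxymethylcytosine (5hmC) in mouse brain, 6455 were found once in control tissue and once after ischemic injury with nearly the same width. Each of these stable-width pairs is 1 peak of the control list and 1 peak of the injury list on chromosomes 1 to 19 that overlap by at least 1 bp, where neither peak touches a further peak of the opposite list. The pairs were chosen by the measured widths, with an injury-list width of more than 0.8 and less than 1.25 times the control-list width. They were 6455 of 12963 one-to-one pairs, and the others were 3347 narrower pairs (ratio of 0.8 or less) and 3161 wider pairs (1.25 or more). The stable-width pairs held 31.4% (95% interval 30.8 to 32.0%) of the 20555 control-list peaks on these chromosomes and 12.1% (11.8 to 12.4%) of the 53341 injury-list peaks. They covered 19.1 Mb in either list, which was 30.4% of the bases under control-list peaks and 14.3% of those under injury-list peaks.

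The DNA came from brain tissue of 6 C57BL/6 mice, 3 with ischemic injury and 3 matched controls. The labels give no age, sex, brain region or time after injury. Fragments that carry 5hmC were tagged with a chemically modified sugar and captured (hMe-Seal), then sequenced, and each group has 1 deposited list of peaks. No spread between mice can be given, the depth behind each list is unknown, and no difference between the groups was tested. The 95% intervals are exact binomial (Clopper-Pearson) for shares and exact order-statistic intervals for medians. They cover counting error only and treat neighbouring pairs as independent.

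5hmC is made when TET enzymes oxidise 5-methylcytosine, the methylated base that DNA methyltransferases write mostly at CG dinucleotides. It is a step on the way to removal of the methyl mark and also persists as a mark of its own. Neurons carry much more of it than most cell types, largely within the bodies of expressed genes and at enhancers, and low levels are found at the start sites of active genes with dense CG content. In a capture assay, the width of a peak is the stretch over which tagged fragments exceed the background.

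Within the stable-width pairs the median width was 2622 bp for control-list peaks, with quartiles of 2022 and 3457 bp, and 2590 bp for injury-list peaks, with quartiles of 1978 and 3512 bp. The median ratio was 0.98, and the injury peak was narrower than its control peak in 56.2% of pairs (55.0 to 57.5%). The injury peak was also the narrower in 53.8% of all one-to-one pairs. Among all one-to-one pairs 49.8% lay inside the window, which is the share the rule itself set. The ratios formed 1 hump around equality, so the window cut through a continuous distribution. Only 7 pairs had the same width to the bp, and 390 (6.04%) were within 1% of it.

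**Figure D1:**
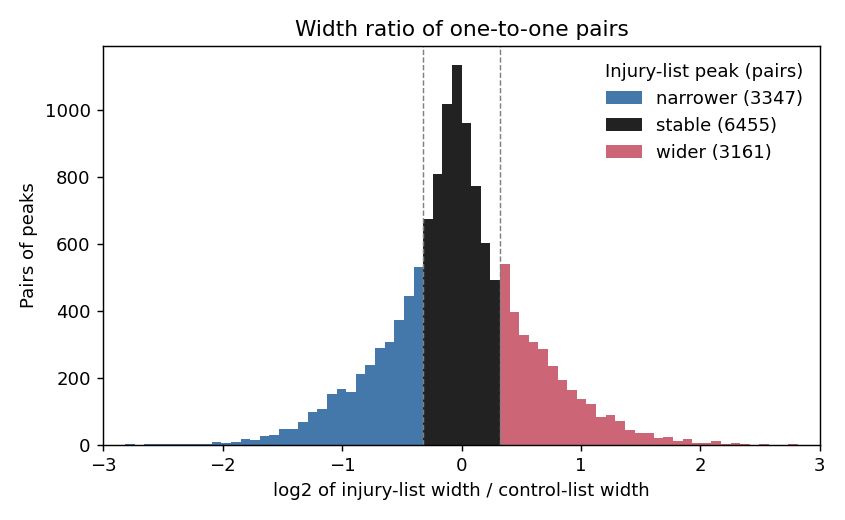
Histogram of the log2 ratio of injury-list to control-list width (x axis) over 12963 one-to-one pairs (y axis, number of pairs), coloured by class, with dashed lines at the ratios 0.8 and 1.25. The 6455 stable-width pairs form the centre of a single hump that runs on into the 3347 narrower and 3161 wider pairs.

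The pairs at the ends of the window show how little separates the classes. Just inside the lower end, the pair at chr13:49305071-49308701 was 3631 bp wide in control tissue and 2905 bp wide after injury. Just outside it, the pair at chr7:119898818-119900722 measured 1905 and 1524 bp, a ratio of exactly 0.8. The other 2 pairs on each side had ratios of 0.8 to within rounding: those inside lay at chr4:131374036-131378542 and chr10:60201521-60204247, and those outside at chr14:121866172-121868490 and chr1:138348578-138350536. At the upper end the last pair inside, at chr17:5246241-5251441, measured 5201 and 6501 bp, and the first outside, at chr4:106698590-106700713, measured 2124 and 2655 bp. Further pairs inside that end lay at chr17:32468614-32472710 and chr4:132581096-132584957, and outside it at chr4:140306832-140308415 and chr17:48595348-48597310. All positions are control-list positions in the mm9 build, counted from 1.

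The peak caller gave each peak a score, the authors' own value, which starts at 50 in both lists and grows with enrichment and with depth. Scores were therefore turned into percentiles within their own list, where 100 is the highest. The control-list peaks of the stable-width pairs had a median score of 82.19 (quartiles 62.51 and 124.7), against 78.42 for the other control-list peaks on the same chromosomes. Their injury-list peaks had a median score of 148.2 (99.5 and 230.5), against 82.46 for the other injury-list peaks. In percentiles these medians were 52.5 (control) and 77.2 (injury). The members thus sat in the middle of the control list and in the upper part of the injury list, which is 2.59 times as long and holds many peaks with no control-list counterpart.

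The position in the injury list rose with the width class. The median injury-list percentile was 48.6 in narrower, 77.2 in stable-width and 88.2 in wider pairs. The median control-list percentile was 54.9, 52.5 and 45.1 in the same order. With the injury list shortened to the control list's length by dropping its lowest scores, the injury-list medians were 44.6, 60.01 and 73.0 and the control-list medians 73.2, 60.83 and 46.2, so the spread over the classes was then of like size in both lists. The order in the injury list was the same among the narrowest, middle and widest control peaks, taken as equal groups of pairs. In the narrowest group (control width up to 2249 bp) the injury-list medians were 33.4, 59.8 and 80.1, and in the widest (3122 bp or more) they were 64.6, 91.2 and 95.3. The control-list order held in the narrowest group, with medians of 36.6, 33.6 and 31.4. It did not hold in the other groups, with 46.8, 47.7 and 44.5 in the middle and 70.6, 75.4 and 71.1 in the widest. Width and score come from the same reads of the same peaks, so these values describe the classes and do not test them.

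**Figure D2:**
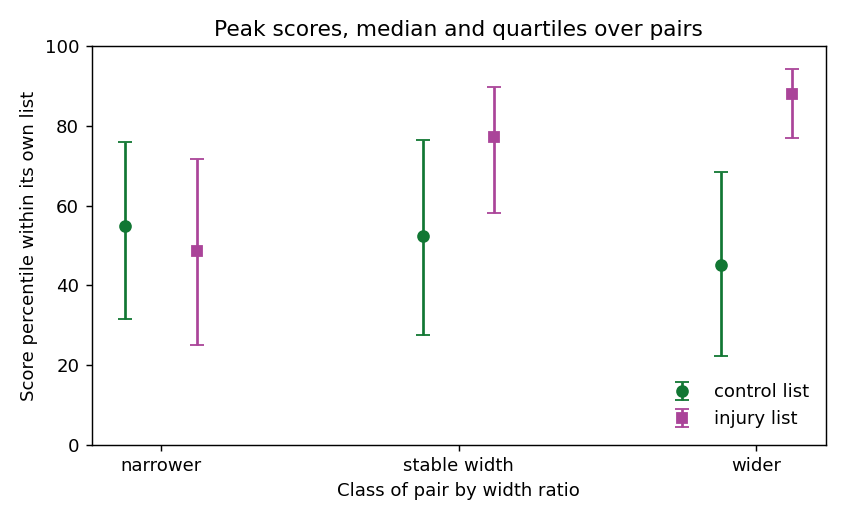
Score percentile of each peak within its own list (y axis, 0 to 100) for narrower, stable-width and wider pairs (x axis); symbols are medians and bars run between the quartiles over pairs. Control-list medians lie between 45.1 and 54.9 in all 3 classes, and injury-list medians climb from 48.6 to 88.2. With lists of equal length, not drawn, the control-list medians fall from 73.2 to 46.2 and the injury-list medians climb from 44.6 to 73.0.

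The change of rank within a pair depended on what it was ranked against. Against the whole lists, the injury-list percentile was the higher in 79.6% of stable-width pairs (78.6 to 80.6%), with a median change of 18.1 points (17.3 to 18.8). It was also the higher in 73.6% of all one-to-one pairs. With the shortened injury list the median change was 0.31 points. Ranked among the 12963 pairs only, the median change in the stable-width pairs was 1.94 points (1.27 to 2.55), compared with -21.7 in narrower and 21.7 in wider pairs. The value for the stable-width pairs was 0.41 after peaks within 1 kb were merged and turned to -0.64 with the shortened injury list. A rise of 25 points or more among pairs was seen in 1190 stable-width pairs (18.4%), where 21.3% of all one-to-one pairs had one. A fall of 25 points or more was seen in 980 (15.2%), where 20.8% of all pairs had one.

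Across the 6455 stable-width pairs the scores of the 2 lists had a Spearman correlation of 0.54, against 0.40 across narrower, 0.43 across wider and 0.39 across all pairs. The points of such a correlation share their libraries and their peak widths, so it is given as a description. Of the stable-width pairs 10.97% were in the highest-scoring 10% of the control list and 24.4% in that of the injury list. The shares of all one-to-one pairs were close to these, at 9.54% and 24.3%. A total of 501 stable-width pairs (7.76%, 7.12 to 8.44%) were in the highest-scoring 10% of both lists, compared with 95 narrower pairs (2.84%) and 187 wider pairs (5.92%). Of all one-to-one pairs 783 (6.04%) were there. In the lowest-scoring 10% of both lists were 18 stable-width pairs (0.28%), 30 narrower pairs (0.90%) and 6 wider pairs (0.19%), against 54 of all one-to-one pairs (0.42%).

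**Figure D3:**
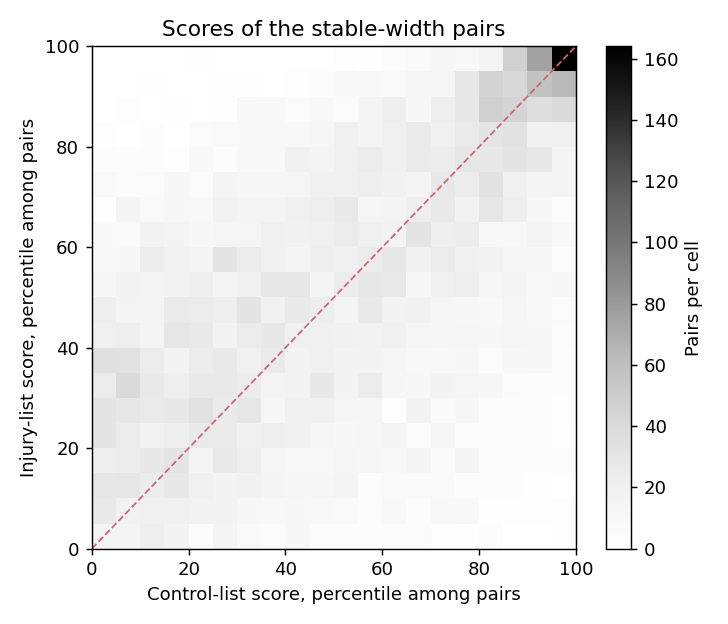
Two-dimensional histogram of the 6455 stable-width pairs by score percentile among pairs, control-list scores on the x axis and injury-list scores on the y axis; darker cells hold more pairs and the dashed line marks equal percentiles. The densest cell is the corner of the highest scores in both lists, and the rest spreads widely around the line.

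The share of stable width was largest among the highest-scoring pairs. When all one-to-one pairs were put in order of the sum of both percentiles, 61.3% (58.6 to 64.0%) of the highest 10% and 53.9% (51.2 to 56.7%) of the next 10% had stable width. In the 8 lower groups the share lay between 44.9% and 50.9% and showed no steady trend. Mean width, taken as the square root of the product of both widths, gave no such rise, with shares from 47.1% to 53.0% over 10 equal groups, of which the widest had 51.1% (48.4 to 53.9%).

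The highest-scoring stable-width pairs included some of the top-ranked regions of both lists. The pair at chr10:79434926-79443150 ranked 1 in control (score 3179.66) and 3 after injury (2386.4), and its widths were 8.22 and 8.60 kb. The pair at chr6:47595986-47602139 shared rank 3 in the control list and was first in the injury list, with a score of 3100 in each, over 6.15 and 5.40 kb. This chr6 region stood alone, with its nearest further control-list peak 166831 bp away and its nearest further injury-list peak 125658 bp away. The pair at chr2:25431408-25436104 also scored 3100 in the control list and ranked 61 in the injury list (1039.03), and its widths were 4.70 and 4.90 kb. The pair at chr8:97850796-97854470 had the same control-list score and injury-list rank 96 (945.87), and was 3.67 kb wide in control and 4.38 kb after injury. These 4 regions kept a rank within the first 100 of both lists, although the control score of 3100 is shared by several peaks and cannot order them.

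The other 4 of the 8 leading pairs lay on chromosomes 7 and 10. The pair at chr10:80605545-80614446 ranked 44 in control and 54 after injury, and its widths of 8.90 and 8.68 kb gave a ratio of 0.98. At chr10:79839160-79846935 the control-list rank was 65 and the injury-list rank 33, with widths of 7.78 and 8.44 kb. Both of these, like the first pair of the control list, fell within 1.18 Mb of chromosome 10. The pair at chr7:51714236-51719176 ranked 40 and 80, and the pair at chr7:31139912-31147491 ranked 29 and 133. Their scores were 1913.36 and 989.13 for the first and 2195.78 and 871.99 for the second.

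A stable width did not mean a stable rank. The largest rise was at chr10:80872506-80877160, where a control-list peak of 4.66 kb with a score of 50.34, ranked 20368 of 20583, was matched by an injury-list peak of 4.42 kb with a score of 413.91, ranked 1456 of 53374. The 2 peaks shared 95.04% of their joint span. This pair was no longer a member of its own after peaks within 1 kb were merged. The next rises were at chr8:94044800-94047969 (control score 50.28, injury score 243.78), chr16:84971294-84974645 (50.09 and 235.59), chr4:153640742-153647098 (52.39 and 344.07) and chr4:140160688-140163556 (51.03 and 260.57). In all 5 the control-list peak was close to the lowest reported score and the injury-list peak was in the highest-scoring 10% of its list. Their percentile against the whole lists rose by between 89.0 and 96.2 points, and the widths differed by ratios of 0.95 to 1.23. Ranked among the pairs only, these 5 had control-list percentiles of 0.24 to 5.93 and injury-list percentiles of 75.9 to 93.6.

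The largest falls went from the upper control list to the bottom of the injury list. At chr10:90429319-90433622 a control-list peak with a score of 341.17 (percentile 96.1) was matched by an injury-list peak of 52.22 (percentile 4.88), over 4.30 and 3.89 kb. At chr16:35542153-35545101 the scores were 422.72 and 53.5, and at chr13:31902719-31904609 they were 566.68 and 54.7. These 3 regions were in the highest-scoring 10% of the control list, and their injury-list peaks were in the lowest-scoring 10%. The 2 further falls, at chr10:12660557-12662225 (136.49 and 50.71) and chr12:70486470-70488109 (138.99 and 51.05), started from percentiles of 79.7 and 80.4. As the depths are unknown, the falls and rises are given as changes of rank, and whether the amount of 5hmC changed was not tested.

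Inside the window, rank still followed width. Stable-width pairs with a ratio from 0.8 to 0.9 had a median change of -5.80 points among pairs, those from 0.9 to 1 had 1.62, those from 1 to 1.11 had 4.70 and those above 1.11 had 8.54. Their median injury-list percentiles were 67.6, 76.6, 81.5 and 82.1, while the control-list medians stayed between 49.3 and 54.7. The order across the 3 classes ran on within the window, though the injury-list medians of the upper groups, 81.5 and 82.1, were close. Width and score come from the same reads of the same peaks, so these values describe the groups and do not test them.

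The rule fixed the width ratio but left the placement of the 2 peaks partly free. The midpoints of a stable-width pair were a median of 142.5 bp apart (137.5 to 148.5 bp), and 38.5% (37.3 to 39.7%) were within 100 bp. Over all one-to-one pairs the median was 275.5 bp, with 24.6% within 100 bp. In the stable-width pairs the signed shift had a median of -1.5 bp (-7.0 to 3.5 bp), so neither direction prevailed. Both peaks covered a median of 86.3% of their joint span, against 59.9% in narrower and 58.6% in wider pairs, where the ratio alone caps this share at 80%. The lower edge of the injury-list peak lay a median of 36 bp (29 to 43 bp) to the inside of the control-list edge, and the upper edge 35 bp (29 to 42 bp) to the inside. These median shifts were of like size at each end. Over all one-to-one pairs each edge lay a median of 44 bp to the inside.

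A like width holds the shifts of both edges close to each other, so that their joint movement largely restates the rule. Both edges moved to lower positions in 29.5% and both to higher positions in 30.1%, and these intervals overlapped (28.4 to 30.7% and 29.0 to 31.2%). The injury-list peak lay inside the control-list peak in 26.8% (25.7 to 27.9%) and contained it in 13.6% (12.8 to 14.5%). The shares of all one-to-one pairs leaned the same way, at 31.4% and 20.2%. An identical start was found in 22 stable-width pairs (30 of all 12963 one-to-one pairs) and an identical end in 9 (14 of all). The closest match was at chr8:124721675-124724333, where both peaks were 2659 bp wide and 1 bp apart. Against the whole lists its score percentile was 29.1 in control and 79.2 after injury, and among pairs only 27.0 and 55.1. At chr15:84447404-84448911 the starts were the same and the ends differed by 2 bp. Its percentiles were 22.7 and 78.2 against the whole lists and 21.1 and 53.4 among pairs. These closely matched regions were singled out after their values were seen.

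**Figure D4:**
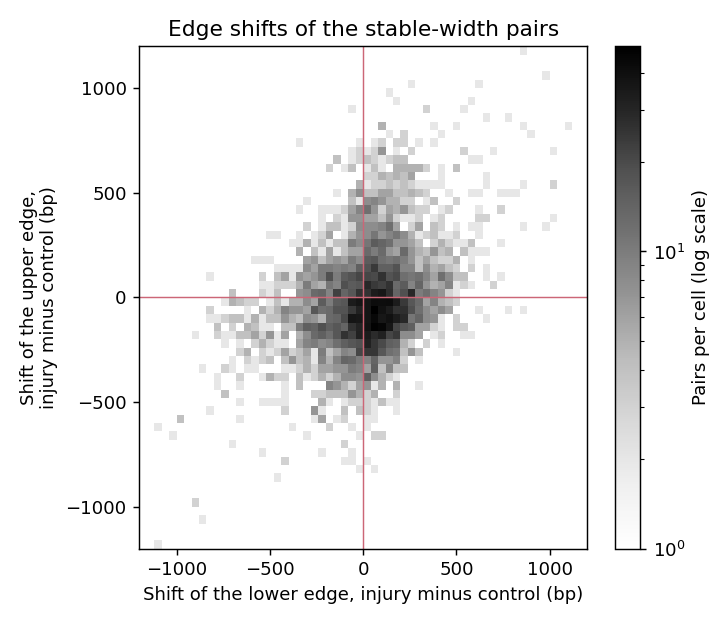
Two-dimensional histogram of the stable-width pairs by the shift of the lower edge (x axis, bp) and of the upper edge (y axis, bp), each injury minus control, with darker cells for more pairs on a log scale; pairs with a shift over 1200 bp are not drawn. The densest part lies close to 0, and the densest cells are at a positive lower-edge and a negative upper-edge shift.

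Placement was tighter, relative to width, in the higher-scoring stable-width pairs. In 4 equal groups by summed percentile, from lowest to highest, the median control-list width grew from 1990 to 2382, 2866 and 3930 bp. The median midpoint shift stayed between 137 and 151.5 bp, so that it fell from 7.06% of the mean width to 6.11, 5.06 and 3.84%. The median width ratio was 0.95 in the lowest group and 1.00 in the highest. In the 501 pairs of the highest-scoring 10% of both lists the median ratio was 0.997 (quartiles 0.937 and 1.07) and the midpoint shift was 3.45% of the width.

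The widest stable-width pairs were domains of more than 12 kb. The widest was at chr4:155539926-155554299, 14.4 kb in control and 15.4 kb after injury, with percentiles of 69.95 and 99.8. The pair at chr14:55681000-55694997 was 14.0 and 14.2 kb wide and its peaks shared 98.2% of their joint span. Next came chr4:151910494-151924361 (13.9 and 14.7 kb), chr17:35227286-35240862 (13.6 and 15.2 kb) and chr11:60519104-60532185 (13.1 and 12.4 kb). The chr11 domain was high in both lists, with percentiles of 99.1 and 99.9. Of the 20 one-to-one pairs with 10 kb or more in both lists, 19 had stable width, a condition that itself favours like widths. Of these 19, 5 were on chromosome 4, which held 537 of the 6455 stable-width pairs. Of the 98 one-to-one pairs with 10 kb or more in at least 1 list, a condition that admits unlike widths, 32 had stable width. The share of all one-to-one pairs with stable width was 49.8%.

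Peaks found in 1 list only lay near stable-width pairs about as often as near all one-to-one pairs. An injury-list peak without control-list overlap lay within 5 kb of 52.0% (50.8 to 53.2%) of stable-width pairs, compared with 45.2% (43.5 to 46.9%) of narrower and 63.2% (61.5 to 64.9%) of wider pairs. The share of all one-to-one pairs was 53.0%. A control-list peak without injury-list overlap was within 5 kb of 7.42% (6.79 to 8.09%) of stable-width pairs, compared with 9.59% (8.61 to 10.6%) of narrower and 5.85% (5.06 to 6.73%) of wider pairs. Of all one-to-one pairs 7.60% had such a neighbour. The stable-width pairs again lay between the other classes, in opposite order for the 2 kinds of neighbour. Neither kind was present within 5 kb of 43.4% of stable-width pairs and of 42.5% of all one-to-one pairs. The share with an injury-only neighbour rose within the window from 47.9% (45.4 to 50.4%) at ratios of 0.8 to 0.9 to 56.7% (53.8 to 59.6%) above 1.11. The share for all stable-width pairs was 23.1% with the shortened injury list, so it depends on list length.

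Distances within the injury list had the same order as the injury-only neighbours. The nearest further injury-list peak was a median of 1852 bp away for stable-width pairs, 3159 bp for narrower and 1214 bp for wider ones. Among control-list peaks these medians were 5810 bp (5493 to 6090 bp), 6224 bp (5765 to 6715 bp) and 6631 bp (6188 to 7071 bp). The intervals of stable-width and narrower pairs overlapped. At the extreme, 178 stable-width pairs (2.76%, 2.37 to 3.19%) had no further peak within 50 kb in either list, against 101 narrower (3.02%) and 33 wider pairs (1.04%). Of all one-to-one pairs 312 (2.41%) were isolated in this way. These isolated stable-width regions were narrow, with a median control-list width of 1807 bp and a median ratio of 0.94.

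By chromosome the share of one-to-one pairs with stable width ran from 46.5% to 52.9%, a range of 6.41 percentage points. After peaks under the control median score were dropped from both lists the range was 11.9 points. The highest shares were on chromosomes 8 (447 of 845, 52.9%, 49.5 to 56.3%), 1 (51.9%, 47.9 to 55.9%) and 19 (51.8%, 46.7 to 56.9%). The lowest were on chromosomes 4 (537 of 1155, 46.5%, 43.6 to 49.4%), 16 (46.5%, 41.7 to 51.4%) and 17 (48.5%, 44.9 to 52.1%). Chromosome 4 was the only 1 of 19 whose interval left out the 49.8% of all pairs. Chromosome 11, the richest in stable-width pairs after chromosome 5, held 538 of them (49.3% of its one-to-one pairs, 46.3 to 52.3%), and chromosome 5 held 587 (49.8%).

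**Figure D5:**
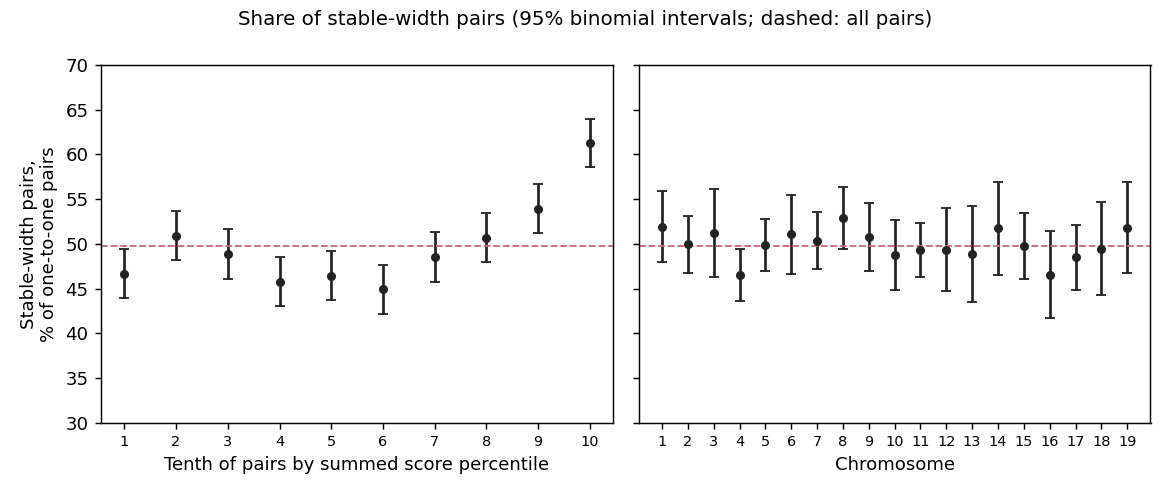
Share of one-to-one pairs with stable width (y axis, %, from 30 to 70) by 10 equal groups of pairs in order of summed score percentile (left) and by chromosome (right); points are shares, bars are 95% binomial intervals and the dashed line marks all pairs at 49.8%. The highest-scoring group reaches 61.3%, and the chromosomes stay between 46.5% and 52.9%.

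Shares near the ends of chromosomes were like those between them. In the first 10 Mb after the first peak of a chromosome 51.7% of one-to-one pairs (47.8 to 55.6%) had stable width, in the last 10 Mb 48.9% (46.9 to 50.9%) and between them 49.9% (48.9 to 50.9%). Of 90 stretches of 10 Mb with 50 or more pairs, 3 had an interval that left out the value of all pairs, with no adjustment for their number. The highest was on chromosome 8 (63202708 to 73202707), with 38 of 57 pairs (66.7%, 52.9 to 78.6%). The lowest was on chromosome 10 (113138455 to 123138454), with 23 of 67 (34.3%, 23.2 to 46.9%).

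A stable-width pair was followed by another about as often as the other pairs were. When the next one-to-one pair along the chromosome lay within 100 kb, it had stable width after 49.2% (47.8 to 50.6%) of stable-width pairs, 48.9% (46.9 to 50.9%) of narrower and 49.9% (48.0 to 51.9%) of wider pairs. The other classes did recur. A narrower pair was followed by a narrower one in 29.5% (27.7 to 31.3%) and by a wider one in 21.6% (20.02 to 23.3%), and a wider pair by a wider one in 29.0% (27.2 to 30.8%) and by a narrower one in 21.1% (19.5 to 22.7%). After a stable-width pair the 2 were nearly level, at 25.0% narrower and 25.7% wider. Within 10 kb the shares followed by a stable-width pair were 49.8, 47.8 and 49.6% after stable-width, narrower and wider pairs.

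Unbroken runs of stable-width pairs were accordingly short. Of 3242 runs, 1619 were a single pair. The longest run had 11 consecutive one-to-one pairs, at chr8:73218152-73398947, within 0.18 Mb and with median percentiles of 82.7 (control) and 79.6 (injury). Both runs of 10 pairs were on other chromosomes, at chr14:20980624-22375556 over 1.39 Mb and at chr6:125235255-125430632 over 0.20 Mb. Peaks that had no counterpart, or several, can lie between the pairs of a run.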

How the data were processed

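Tagged 5hmC fragments from 3 control and 3 injured mice were sequenced, and the authors deposited 1 headerless peak list per group. Per the submitters' processing notes, CASAVA 1.4, Bowtie 0.12.9, MACS 1.4.2 and the mm9 build were used. Settings, pooling of mice and any input control are not stated in these sources. The deposited score of each peak is taken to be the score that MACS writes. Pairs, widths, percentiles and gaps were computed with Python 3.11.15, numpy 2.4.6, pandas 2.3.3 and scipy 1.17.1, and drawn with matplotlib 3.10.9. Overlaps were checked against bedtools, with 0 mismatches, and pairing was tested on simulated peaks.

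The members and the comparisons were chosen with earlier results of these data known. Regions were named by rule: the 8 pairs with the highest sum of percentiles, the 5 largest rises and falls, the 5 widest, 3 at each side of each end of the window, the 3 longest runs, and the 3 chromosomes with the highest and lowest shares. Ties went to the wider control peak. Genes, base composition and sequences were not analysed here, because no genome or annotation of the mm9 build was used.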

Additional observations from a re-analysis of the deposited data

How the results depend on the processing

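No paired analysis was possible because the lists hold no values of single mice, and leaving out a mouse was not possible either. With an overlap of 50% of both peaks, 53.5% of one-to-one pairs had stable width. The median percentiles of the members were then 53.9 (control) and 78.5 (injury), and the midpoint shift was 149.5 bp. An injury-only peak lay within 5 kb of 61.5%, and 53.4% were followed by a stable-width pair. Here injury-only also takes in injury-list peaks that overlap a control-list peak by less than 50% of either one. With a window of 0.9 to 1.11 there were 3707 members (28.6%), with percentiles of 54.3 and 79.2, a median change among pairs of 2.87 points, a midpoint shift of 119 bp and 28.6% followed by a member. With a window of 0.67 to 1.5 the share was 71.3%, the midpoint shift 186 bp and the share followed by a member 70.6%. With peaks under the control median score of 79.7 left out of both lists there were 3302 members, the injury percentile was 78.8, the change against whole lists 19.7 points, the midpoint shift 154.8 bp, 45.9% had an injury-only peak within 5 kb and the chromosomes differed by up to 11.9 percentage points in place of 6.41. With peaks within 1 kb merged, 40.4% had stable width, the percentiles were 55.0 and 74.8, the changes 14.7 points against whole lists and 0.41 among pairs, the midpoint shift 161.5 bp, 39.1% had an injury-only peak within 5 kb and 40.8% were followed by a member.

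With the injury list reduced to the control list's length, 50.8% had stable width, the percentiles were 60.83 and 60.01, the change was 0.31 points against whole lists, the midpoint shift 151.5 bp and 23.1% had an injury-only peak within 5 kb. The change among pairs then turned to -0.64 points, and the cause was not tested. An injury-only peak lay within 1 kb of 23.6% of members and within 20 kb of 84.2%. Under all 6 alternatives to the pairing the members' injury percentile lay between those of narrower and wider pairs. Their share with an injury-only neighbour did so too, except with an overlap of 50% of both peaks. There members had 61.5%, narrower pairs 64.4% and wider pairs 69.7%. These shares count other neighbours, since injury-list peaks with a smaller overlap of a control-list peak were then injury-only too. The 5 largest rises kept their direction wherever the pair was still a member, and so did the 5 falls. The width windows and the overlap of 50% leave the scores of a pair unchanged, so these settings could not turn a direction. With peaks within 1 kb merged, 3 of the rises and 4 of the falls were still members, and the largest rise was not. No pair of either kind was left after peaks under the control median score were dropped, and none of the falls with the reduced injury list. Both losses were set in advance, as these rises have control-list scores and these falls injury-list scores near the lowest reported. The unknown depth limits every comparison of scores between the lists.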

Other observations

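A small set of stable-width pairs had like widths at different places. In 265 of the 6455 pairs (4.11%, 3.63 to 4.62%) both peaks covered less than 50% of their joint span, with a median midpoint shift of 1269 bp. Such low overlap was seen in 2252 of the 12963 one-to-one pairs (17.4%), in 30.4% of narrower and in 30.7% of wider pairs. Like widths themselves favour a large overlap. The median percentiles of the 265 pairs, 36.7 (control) and 61.3 (injury), were lower than those of all stable-width pairs (52.5 and 77.2). The pair at chr3:152914361-152915991 (1631 bp in control, 1385 bp after injury) overlapped by 1 bp, the pair at chr7:4699488-4702258 by 26 bp and the pair at chr17:34329229-34332283 by 38 bp. Without these 265 pairs, an alternative chosen after seeing the data, the median injury percentile was 77.8 in place of 77.2, the median change among pairs 2.18 in place of 1.94 points and the share with an injury-only peak within 5 kb 52.1% in place of 52.0%.

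A stretch of chromosome 10 from 79 to 81 Mb, singled out after its values were seen, held 3 of the 8 leading stable-width pairs and the largest rise of rank. It held 60 stable-width pairs among 103 one-to-one pairs (58.3%, 48.1 to 67.9%), an interval that takes in the 49.8% of all pairs. Their median percentiles were 85.1 (control) and 92.3 (injury). The pair with the largest rise, at chr10:80872506-80877160, began 367 bp after the control-list peak of another stable-width pair at chr10:80866629-80872138. That neighbour had widths of 5510 and 5505 bp, the same end in both lists, and percentiles of 90.8 and 97.7. The 2 neighbouring regions thus stood at percentiles of 1.05 and 90.8 in control tissue and of 97.3 and 97.7 after injury. They lie 367 bp apart in the control list and 494 bp apart in the injury list. Merging peaks within 1 kb joins them, so this contrast and the largest rise are then lost.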
